A study of Mus musculus with 2 samples.

Results

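The integrin chains followed here were 10 genes, among them the gene of the sort marker itself: Itgam, which encodes CD11b, with Itgal, Itgax, Itga1, Itga2, Itga4, Itgae, Itgb1, Itgb2 and Itgb7. They were taken by gene symbol from the 31053 genes counted, and all 10 were found. RNA was counted in single cells with the 10x droplet method, which reads the 3′ end of each transcript, in 2 libraries of C57BL/6 mouse liver. The RES library came from mice whose liver fibrosis had resolved and the Ctrl library from uninjured controls. In both, liver mononuclear cells were separated on Histopaque, the cells of 5 mice were pooled, and those with CD45 and CD11b on their surface were collected by flow cytometry. The labels name neither the agent of injury nor the ages of the mice. With 1 library on each side, effects of the library and of the group cannot be told apart, and no difference between RES and Ctrl had a replicate check or a test. Levels are given as CPM: the UMIs of a gene (unique molecular identifiers, which count captured transcripts) summed over the cells of a class, scaled to counts per 1000000 UMIs of these cells. Intervals are at the 95% level and reflect counting error alone.

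Integrins are cell surface receptors made of 1 alpha and 1 beta chain, and they bind leukocytes to vessel walls, to matrix and to other cells. Signals inside the cell switch them between a bent, inactive and an extended, binding form. The beta2 chain Itgb2 (CD18) pairs with Itgal (CD11a), Itgam (CD11b) and Itgax (CD11c). The beta1 chain Itgb1 pairs with the collagen receptor chains Itga1 (CD49a) and Itga2 (CD49b) and with Itga4 (CD49d), which can also pair with Itgb7. Itgae (CD103) pairs with Itgb7. In the mouse liver, CD49a marks resident type 1 innate lymphoid cells (ILC1) and CD49b marks circulating natural killer (NK) cells. CD11b is carried by monocytes, neutrophils, many macrophages and maturing NK cells.

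The RES library held 34119806 UMIs in 4278 barcodes and the Ctrl library 20379164 UMIs in 3691 barcodes. Filtering left 4011 RES and 3337 Ctrl cells, whose median depth was 6380 and 4506 UMIs. Cell classes were set by marker lists that held none of the 10 genes, and a cell took the class of the list with the most markers seen. Levels were read in classes of at least 15 cells, and RES over Ctrl ratios in the 7 classes with at least 50 cells in each library. In RES these were 1357 NK, 81 ILC1-like, 801 classical monocyte, 662 nonclassical monocyte, 169 C1q macrophage, 135 type 2 dendritic (cDC2) and 101 B cells. The same classes held 1405, 162, 527, 376, 95, 176 and 98 cells in Ctrl. Many macrophage cells lay near the limit of their class: 51.4% of the 175 RES cells in the Arg1 and Spp1 macrophage class led the next list by 1 marker only, and the C1q class had 49.1% such cells in RES and 22.1% in Ctrl. Ptprc, which encodes CD45, had a UMI in 97.9% of RES and 98.2% of Ctrl cells. Neutrophils, whose surface carries CD11b, were represented by few transcripts: 6 of 8 markers were seen in each library, Ly6g was at 0 in both, and the list summed to 72.6 CPM in RES and 53.7 CPM in Ctrl. Kupffer cell markers summed to 16.9 and 14.5 CPM, and the class held 0 RES cells and 1 Ctrl cell. The libraries shared 56 barcode sequences, and leaving them out kept every ratio given here within its interval.

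Itgam lies on mouse chromosome 7 at 128062640-128118491 on the plus strand (GRCm38, GENCODE M21 annotation), with Itgax 11.1 kb downstream of it at 128129547-128150657. Itga2 (114833081-114932100) and Itga1 (114953096-115101964) are neighbours in the same way on the minus strand of chromosome 13, 21.0 kb apart, and no protein-coding gene lies within either gap. The neighbours of each pair differ in the cells that express them, as given below. Their upstream sequences are therefore shown side by side, as the 250 bases before the annotated start in RefSeq (GRCm38.p6, 5′ to 3′ on the strand of the gene). The windows are chr7:128062390-128062639 and chr7:128129300-128129549 on the plus strand, and chr13:115101965-115102214 and chr13:114932101-114932350 on the minus strand. Capitals mark the letters GAGGAA or their reverse TTCCTC, the core that the myeloid factor PU.1 is known to bind.
Itgam: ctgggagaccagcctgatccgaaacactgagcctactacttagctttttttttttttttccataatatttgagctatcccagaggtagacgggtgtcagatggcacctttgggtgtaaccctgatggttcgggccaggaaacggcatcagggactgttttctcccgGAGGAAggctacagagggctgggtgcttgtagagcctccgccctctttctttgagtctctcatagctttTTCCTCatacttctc
Itgax: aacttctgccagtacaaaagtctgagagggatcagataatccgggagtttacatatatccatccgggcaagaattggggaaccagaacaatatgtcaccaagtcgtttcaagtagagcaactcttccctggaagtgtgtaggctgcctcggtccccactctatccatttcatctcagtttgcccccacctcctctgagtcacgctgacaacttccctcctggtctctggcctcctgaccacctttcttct
Itga1: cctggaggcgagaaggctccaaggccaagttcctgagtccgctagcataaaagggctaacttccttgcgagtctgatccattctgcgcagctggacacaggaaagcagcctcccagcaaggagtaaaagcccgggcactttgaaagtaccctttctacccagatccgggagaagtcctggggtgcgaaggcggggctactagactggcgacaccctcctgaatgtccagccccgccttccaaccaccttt
Itga2: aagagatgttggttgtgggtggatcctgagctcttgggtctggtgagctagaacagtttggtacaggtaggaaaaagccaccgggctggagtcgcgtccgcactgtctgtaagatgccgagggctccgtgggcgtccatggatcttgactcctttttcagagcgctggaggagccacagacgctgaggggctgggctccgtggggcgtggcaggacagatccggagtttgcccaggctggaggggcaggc
The Itgam window held the motif at 84 and 15 bases upstream, and the other 3 windows did not hold these letters. Among the 7 members with an entry in the RefSeq table, Itgb1 held it once, at 9 bases upstream, and 23.3% of 32851 gene windows of the same length held it on either strand. The letters TGTGGT (reverse ACCACA), a core of Runx factors, were searched in the same way, and the Itga4 window alone among the 7 held them, against 14.05% of all windows. No member held both motifs. A match of letters is a description of the window and not of binding. Gm49368 overlaps Itgam on the same strand, with 420 RES and 208 Ctrl UMIs of its own, and Pelo overlaps Itga1, with 39 and 22, so reads in the shared stretches could have gone to either gene. On the opposite strand Cerkl overlaps Itga4, with 233 and 212 UMIs, and Haspin overlaps Itgae, with 283 and 246, and the use of strand in counting is not stated in the labels.

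Itgam RNA was found in the macrophage, monocyte, NK and cDC2 classes, and it was as low as in T cells, its background class, in type 1 dendritic cells (cDC1) and migratory dendritic cells. In RES it was highest in the Arg1 and Spp1 macrophage class, at 795 CPM (756.9 to 834.6, exact Poisson interval). The C1q macrophage class followed at 524 CPM, nonclassical monocytes at 446, classical monocytes at 404 and NK cells at 279. Each step down this order was wider than counting error. B cells (239 CPM) and cDC2 (231 CPM) did not differ beyond it. In Ctrl, nonclassical monocytes were highest at 333 CPM (311 to 357), classical monocytes and NK cells came next at 247 CPM each, and cDC2, B cells and C1q macrophages lay at 154, 145 and 144 CPM without a step beyond counting error. ILC1-like cells had 65.9 CPM in RES and 88.2 CPM in Ctrl. T cells had 26.4 and 26.5 CPM, cDC1 24.2 and 12.9 CPM, and migratory dendritic cells 16.2 and 8.97 CPM. Plasmacytoid dendritic cells, the other background class, had 88.3 CPM in 15 RES cells and 25.8 CPM in 27 Ctrl cells.

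In NK cells Itgam RNA lay far above the level that free RNA gave for a monocyte gene. The Itgam level of NK cells was 53.2% of that of C1q macrophages in RES and 74.0% of that of nonclassical monocytes in Ctrl. By comparison Lyz2, the lysozyme gene of monocytes, reached in NK cells 0.75% of its classical monocyte level in RES and 1.46% in Ctrl. With every cell thinned to 1000 UMIs, an Itgam UMI was left in 25.2% of 1351 RES NK cells (22.9 to 27.6, Clopper-Pearson exact) and in 24.0% of 1385 Ctrl NK cells (21.7 to 26.3). Among T cells it was left in 1 of 48 RES cells (2.08%) and in 0 of 34 Ctrl cells, where a 0 still allows a share of up to 8.82%. Median depth was 4019 and 3236 UMIs in NK cells and 5462 and 4963 UMIs in T cells. Without thinning, an Itgam UMI was seen in 65.4% of RES and 53.6% of Ctrl NK cells. Over all kept cells of this CD11b sort, 1025 RES cells (25.6%) and 1499 Ctrl cells (44.9%) had no Itgam UMI, a share that moves with depth and says nothing of the surface protein, which was not measured here.

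Classical monocytes gave the largest single share of Itgam transcripts in RES, and NK cells in Ctrl. In both libraries the monocyte classes together held more of them than NK cells did. In RES, 27.3% of all Itgam UMIs were in classical monocytes, 16.5% in nonclassical monocytes, 13.4% in NK cells, 12.8% in the Arg1 and Spp1 macrophage class and 8.19% in C1q macrophages. Ctrl NK cells held 31.6%, classical monocytes 26.2%, nonclassical monocytes 21.0% and C1q macrophages 2.25%. NK cells were 33.8% of RES and 42.1% of Ctrl cells. A further 15.7% of RES and 6.18% of Ctrl Itgam UMIs were in cells that met no class.

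**Figure D1:**
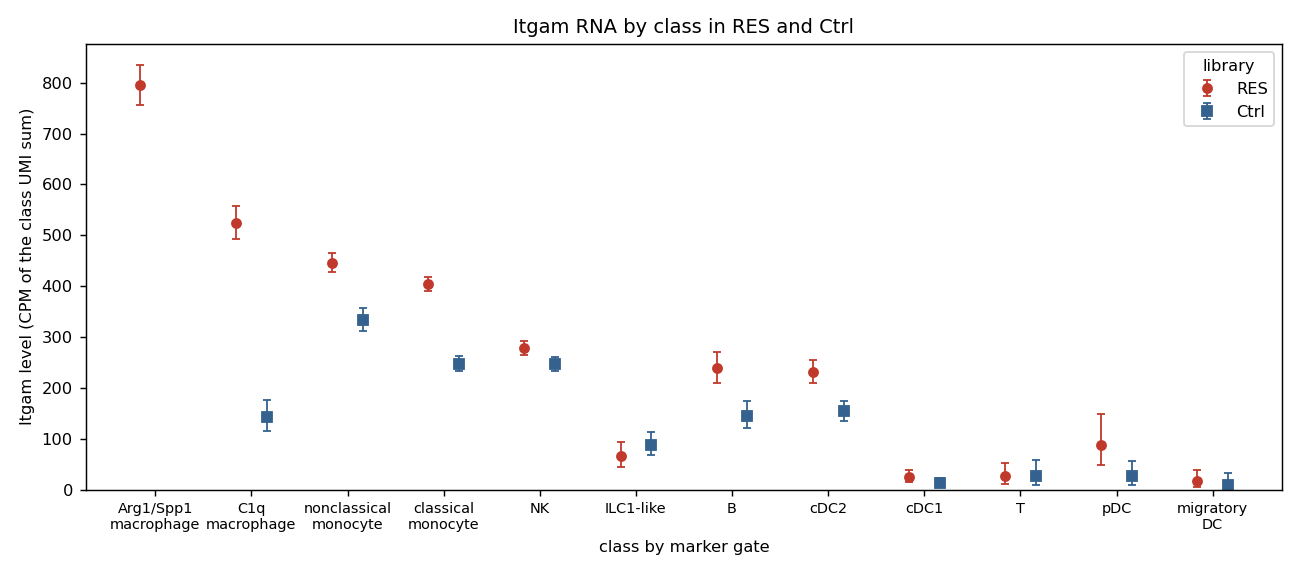
Itgam level (CPM, linear axis from 0) in each class, with RES as red circles and Ctrl as blue squares and exact Poisson 95% intervals as bars. The Arg1 and Spp1 macrophage class is plotted for RES alone because Ctrl had 6 such cells. RES lies above Ctrl in macrophages and monocytes, while NK cells lie close together at 279 and 247 CPM.

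Itgam was higher in RES than in Ctrl in the whole library and in most myeloid classes. Over all kept cells it was at 398 CPM in RES and 208 CPM in Ctrl, a log2 ratio of 0.93 (0.88 to 0.99, exact conditional binomial interval). Among C1q macrophages it was at 524 and 144 CPM (log2 1.87, 1.55 to 2.20). Classical monocytes had 404 and 247 CPM (0.71, 0.61 to 0.81), nonclassical monocytes 446 and 333 CPM (0.42, 0.30 to 0.54), and cDC2 231 and 154 CPM (0.58, 0.35 to 0.81). The NK ratio was 0.18 (0.07 to 0.28), and the ILC1-like ratio of -0.42 had an interval that included 0 (-1.09 to 0.22). When the kept cells were clustered without the integrin genes, cluster 1 held 39 RES and 119 Ctrl ILC1-like cells, and its ratio was -1.22 (-2.54 to -0.09), from 8 RES and 35 Ctrl UMIs, and in cluster 0 it was -0.29 (-1.24 to 0.64).

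The higher macrophage and monocyte levels in RES moved in part with the share of cells in clusters that were high in Arg1. Cluster 15 held 656 RES and 18 Ctrl cells and cluster 19 held 88 and 2. In RES their Arg1 levels were 7646 and 4526 CPM, against 15.6 CPM in cluster 7, the main cluster of classical monocytes, and 29.0 CPM in cluster 6, that of nonclassical monocytes. Arg1 encodes arginase, which breaks down arginine, and is a textbook gene of macrophages in repair. Cluster 15 had 692 CPM of Itgam and cluster 19 had 734 CPM. The class limits cut across cluster 15: 169 of its RES cells were classed as classical monocytes, 134 as C1q macrophages and 162 as Arg1 and Spp1 macrophages. They had 655, 589 and 792 CPM of Itgam. In cluster 19, 57 RES cells were classed as nonclassical monocytes and had 749 CPM.

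Inside the main monocyte clusters the Itgam levels of the libraries were close. Classical monocytes in cluster 7 had 347 CPM in 440 RES cells and 320 CPM in 220 Ctrl cells, a log2 ratio of 0.12 (-0.03 to 0.26). Nonclassical monocytes in cluster 6 had 373 CPM in 547 RES cells and 375 CPM in 271 Ctrl cells, a ratio of -0.011 (-0.16 to 0.13). Classical monocytes in clusters 9 and 10 had 273 and 268 CPM in RES, against 175 and 204 CPM in Ctrl. C1q macrophages of cluster 10 had 179 CPM in 20 RES cells and 165 CPM in 34 Ctrl cells, and cluster 11, with 44 Ctrl C1q macrophages, had 86.2 CPM. A total of 3 clusters, 15, 18 and 19, had at least 1000 CPM of Arg1 in RES (the Arg1-high clusters, a rule set after their values were seen). Leaving them out gave a log2 ratio of 0.44 (-0.10 to 0.97) for C1q macrophages, with 34 RES and 88 Ctrl cells. Classical monocytes then stood at 0.41 (0.31 to 0.52) and nonclassical monocytes at 0.11 (-0.02 to 0.24). The cDC2 class kept 134 RES and 176 Ctrl cells, at 228 and 154 CPM, so its higher RES level did not come from these clusters. With the Arg1-high clusters left out, RES C1q macrophages had less Itgam than RES classical monocytes (172 and 329 CPM, log2 -0.94). This reversed the order over all cells. The whole library without these clusters had 272 CPM in RES and 206 CPM in Ctrl (log2 0.40, 0.34 to 0.46).

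**Figure D2:**
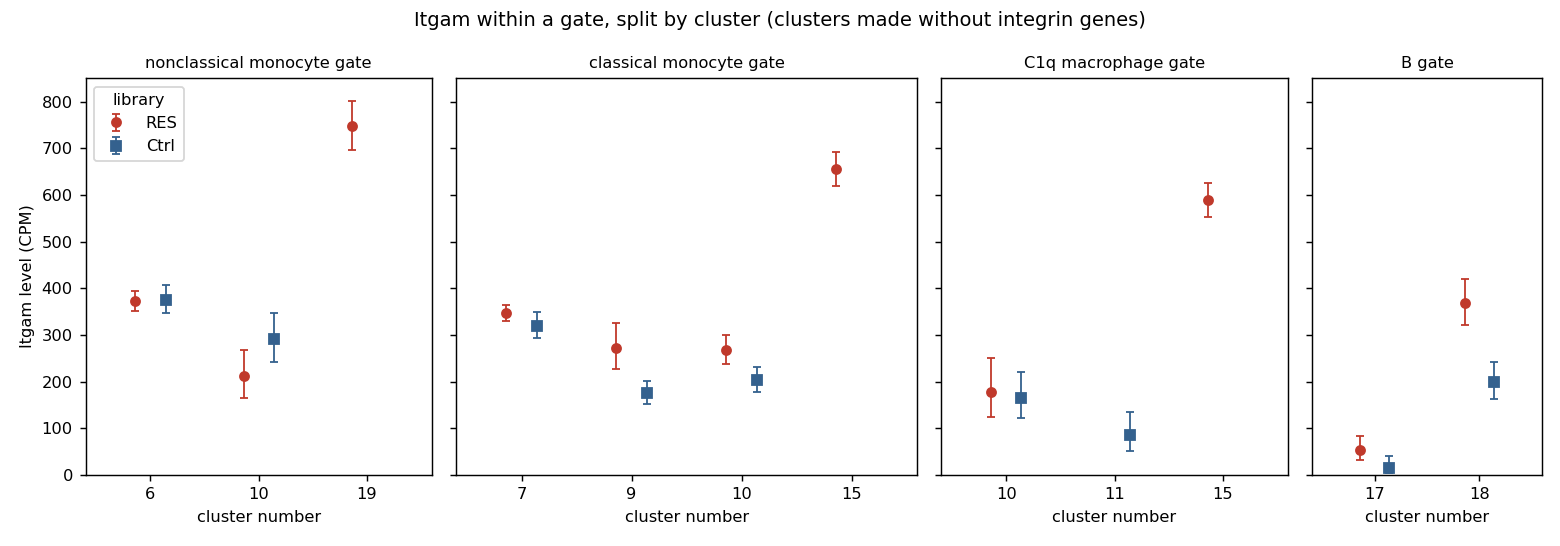
Itgam level (CPM, linear axis from 0) within 4 classes, split by cluster number, with RES as red circles, Ctrl as blue squares and exact Poisson 95% intervals. Points with under 20 cells are left out. In clusters 6 and 7 the libraries lie close together, and the high RES points are in clusters 15 and 19, where Ctrl has no point.

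The Itgam signal of the B class was uneven in the same way. B cells in cluster 17 had 53.7 CPM in 62 RES cells and 15.6 CPM in 55 Ctrl cells, from 19 and 4 UMIs. B cells in cluster 18 had 368 CPM in 37 RES cells and 200 CPM in 39 Ctrl cells. Those of cluster 18 also had 6161 and 7975 CPM of Lyz2, against 130 and 121 CPM in cluster 17, and their median depth was 16415 and 12943 UMIs, against 4296 and 3582 UMIs. Whether they were doublets of B cells and monocytes was not tested. The B class value of 239 CPM in RES and 145 CPM in Ctrl thus rests on cells that carry monocyte transcripts.

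Itgb2, the common partner of the 3 CD11 chains, was read in every class. It was highest in nonclassical monocytes, at 777 CPM in RES and 564 CPM in Ctrl, and NK cells had 476 and 448 CPM. The lowest class was migratory dendritic cells, at 35.7 and 31.4 CPM. In RES the Arg1 and Spp1 macrophage class had 612 CPM. Itgb2 was higher in RES in C1q macrophages (443 and 255 CPM, log2 0.80, 0.55 to 1.05), but outside the Arg1-high clusters the ratio was -0.012 (-0.44 to 0.40). Outside these clusters classical monocytes stood at 0.07 (-0.03 to 0.18), but nonclassical monocytes were still higher in RES (0.43, 0.34 to 0.53). All kept cells outside them stood at 0.28 (0.23 to 0.32). In the RES Arg1 and Spp1 macrophage class, 98.8% of cells with an Itgam UMI also had an Itgb2 UMI, against 98.3% of all cells. For NK cells these shares were 84.6% against 83.5% in RES and 78.1% against 75.5% in Ctrl. For nonclassical monocytes they were 95.1% against 92.6% in RES and 88.9% against 85.6% in Ctrl. The shares among cells with Itgam were thus close to those of the whole class. Such shares rise with depth.

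Itgal, the alpha chain of LFA-1 that binds ICAM proteins on vessel walls, was highest in nonclassical monocytes, which patrol vessels. They had 1150 CPM in RES and 955 CPM in Ctrl, which was 6.07-fold and 3.17-fold the level of classical monocytes (189 and 301 CPM). NK cells had 467 and 459 CPM and ILC1-like cells 408 and 426 CPM, without a difference beyond counting error between these 2 classes in either library. Itgal was lower in RES in C1q macrophages (72.3 and 239 CPM, log2 -1.73, -2.07 to -1.38) and in classical monocytes (log2 -0.67, -0.78 to -0.56). RES C1q macrophages of cluster 15 had 52.4 CPM, and outside the Arg1-high clusters the class had 185 CPM in RES and 254 CPM in Ctrl (log2 -0.45), with an interval that reached 0. In the main classical cluster Itgal was at 185 CPM in RES and 237 CPM in Ctrl. The macrophage classes of RES with the highest Itgam levels were thus among the lowest in Itgal.

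Itgax, the CD11c chain used as a textbook marker of dendritic cells, was not confined to them. In RES it was at 163 CPM in ILC1-like cells, 160 in cDC2, 145 in NK cells and 129 in nonclassical monocytes, and the first 3 did not differ beyond counting error between neighbours. In Ctrl it was highest in ILC1-like cells at 257 CPM, with 168 CPM in C1q macrophages, 167 in cDC2, 136 in nonclassical monocytes and 130 in NK cells. T cells, its background class, had 26.4 CPM in RES and 13.2 CPM in Ctrl. Classical monocytes had 14.5 and 41.9 CPM (log2 -1.53, -1.88 to -1.19), but 3.0 and 3.6 CPM in cluster 7. The Ctrl signal there lay in clusters 9 and 10, with 63.1 and 72.2 CPM, where RES had 17.6 and 41.9 CPM. Levels of Itgax in C1q macrophages were 69.3 CPM in RES and 168 CPM in Ctrl (log2 -1.28), and 175 and 180 CPM outside the Arg1-high clusters (log2 -0.04, -0.54 to 0.46).

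**Figure D3:**
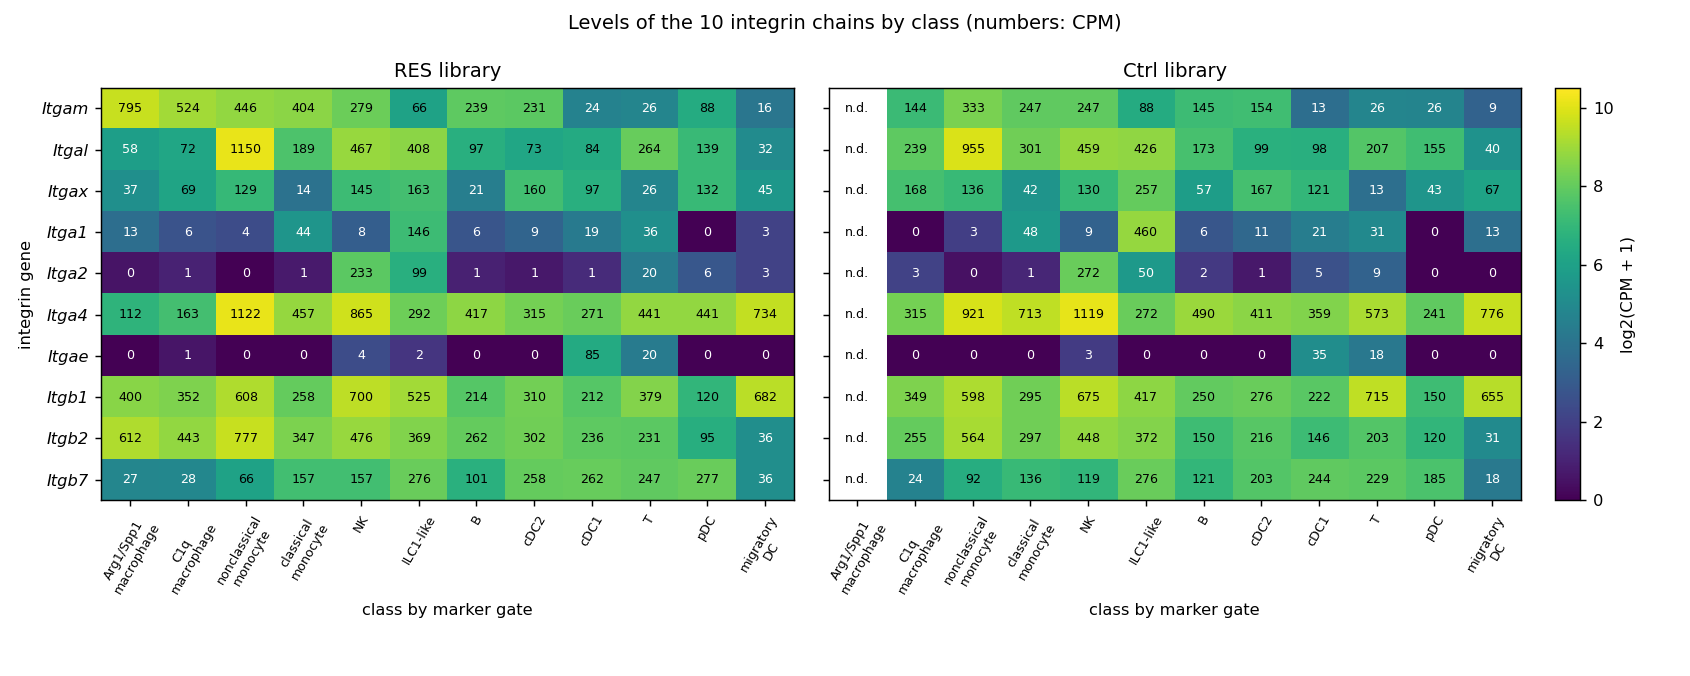
Level of each integrin chain (rows) in each class (columns), with RES on the left and Ctrl on the right. Colour is log2(CPM + 1), the numbers are CPM, and n.d. marks the Ctrl class with 6 cells. Itgam is brightest in the RES macrophage classes, Itgal in nonclassical monocytes, Itga1 in ILC1-like cells and Itga2 in NK cells.

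The collagen receptor chains divided NK from ILC1-like cells. Itga1 was at 146 CPM in ILC1-like and 7.69 CPM in NK cells of RES, a 19.02-fold difference, and at 460 and 8.90 CPM in Ctrl, a 51.7-fold difference. Classical monocytes had 44.0 CPM in RES and 48.4 CPM in Ctrl. NK or ILC cells that the lists did not split had 18.002 CPM in 58 RES cells and 91.8 CPM in 74 Ctrl cells (61.5 to 132). B cells, the background class, had 5.80 and 5.95 CPM. Itga2 ran the other way, with 233 CPM in NK and 98.8 CPM in ILC1-like cells of RES (2.35-fold) and 272 and 49.96 CPM in Ctrl (5.45-fold). In classical monocytes, nonclassical monocytes and cDC2 of both libraries Itga2 was between 0 and 1.20 CPM. NK cells also exceeded ILC1-like cells in Itga4, by 2.96-fold in RES and 4.12-fold in Ctrl. Itgb7 was higher in ILC1-like cells, by 1.75-fold in RES and 2.33-fold in Ctrl.

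ILC1-like cells of RES had less Itga1 and more Itga2 than those of Ctrl. The Itga1 log2 ratio was -1.65 (-2.05 to -1.28), from 71 UMIs in 81 RES cells and 313 UMIs in 162 Ctrl cells. The thinned share of cells with an Itga1 UMI was 11.1% of 81 RES cells (5.21 to 20.1) and 37.9% of 161 Ctrl cells (30.4 to 45.9), while NK cells had 0.888% and 0.794% and B cells 0 of 99 and 1 of 97. The unthinned ILC1-like shares were 45.7% and 67.9%. Median depth was 5853 and 4030 UMIs in ILC1-like cells and 8150 and 7102 UMIs in B cells. Itga2 had a ratio of 0.98 (0.32 to 1.66), from 48 and 34 UMIs. The class was not uniform: 36 RES and 39 Ctrl cells lay in cluster 0, which was mostly NK cells, and 39 and 119 in cluster 1. In cluster 1 alone, Itga1 was at 213 CPM in RES and 632 CPM in Ctrl (log2 -1.57, -2.01 to -1.15) and Itga2 at 81.3 and 26.8 CPM (1.60, 0.54 to 2.72). Gzma, a granule protease gene, was at 673 and 8726 CPM in those cells. In cluster 0, Itga1 was at 91.5 and 35.3 CPM, with an interval of the ratio that included 0 (1.37, -0.08 to 3.03).

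CD11b protein is known to appear as mouse NK cells mature, and Itgam RNA was higher in cells of the mature stage. NK cells with more markers of the mature list (Klrg1, Cma1, Zeb2, S1pr5, Gzmb and Klra8) had 326 CPM in RES and 276 CPM in Ctrl. Those with more of the less mature list (Ctla2a, Cd27, Emb, Cd7, Kit and Il2ra) had 195 and 143 CPM. Mature cells were thus 1.67-fold higher in RES (log2 0.74, 0.54 to 0.94) and 1.92-fold higher in Ctrl (0.94, 0.67 to 1.23). Itgb2 differed in the same direction, by 0.79 in RES and 0.76 in Ctrl, and Itga4 by 0.51 and 0.43. Itgax stood at -0.13 in RES, with an interval that included 0, and at -0.42 in Ctrl (-0.71 to -0.12). Itgb1 stood at 0.03 and -0.01. By cluster, NK cells had 381 CPM of Itgam in RES and 340 CPM in Ctrl in cluster 4, 340 and 305 CPM in cluster 3, 197 and 176 CPM in cluster 0 and 189 and 116 CPM in cluster 5. Clusters 3 and 4 were thus above clusters 0 and 5 in both libraries. ILC1-like cells had 0.24-fold the Itgam level of NK cells in RES and 0.36-fold in Ctrl. That value depended on the cluster: ILC1-like cells of cluster 0, which was mostly NK cells, had 116 CPM in RES and 141 CPM in Ctrl, and those of cluster 1 had 31.0 and 72.1 CPM. Set against NK cells of cluster 3, the main NK cluster, ILC1-like cells of cluster 1 stood at log2 -3.46 in RES and -2.08 in Ctrl.

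**Figure D4:**
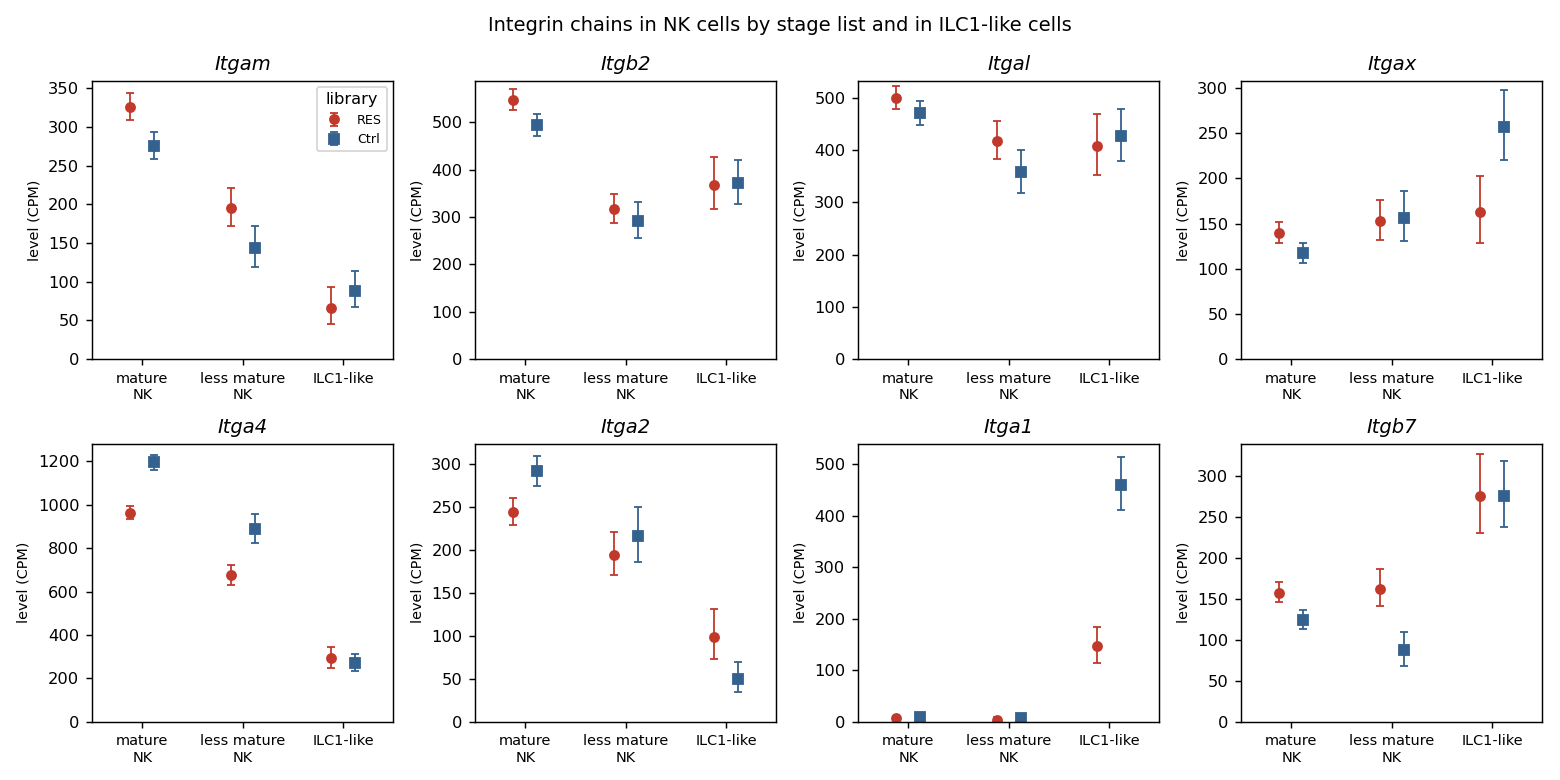
Levels (CPM, linear axes from 0, scaled separately) of 8 integrin chains in mature NK, less mature NK and ILC1-like cells, with RES as red circles, Ctrl as blue squares and exact Poisson 95% intervals. Itgam steps down across the 3 groups, Itga1 is highest in ILC1-like cells, at 146 CPM in RES and 460 CPM in Ctrl, and Itga2 lies highest in NK cells.

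Itga4, whose product binds VCAM-1 and fibronectin with Itgb1 and the gut addressin MAdCAM-1 with Itgb7, was read in every class. In RES nonclassical monocytes were highest at 1122 CPM, ahead of NK cells at 865 CPM, and in Ctrl NK cells were highest at 1119 CPM, ahead of nonclassical monocytes at 921 CPM. Both steps were wider than counting error. The Arg1 and Spp1 macrophage class was lowest in RES, at 112 CPM. Itga4 was lower in RES among C1q macrophages (163 and 315 CPM, log2 -0.95, -1.21 to -0.69) and classical monocytes (457 and 713 CPM, log2 -0.64, -0.71 to -0.57). RES C1q macrophages of cluster 15 had 121 CPM, and outside the Arg1-high clusters the class ratio was 0.28 (-0.07 to 0.62). In the main classical cluster it was at 548 CPM in RES and 769 CPM in Ctrl.

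Itgb1, the partner of the collagen receptor chains, was under 1.5-fold apart between the libraries in each of the 7 classes. NK cells had 700 CPM in RES and 675 CPM in Ctrl, nonclassical monocytes 608 and 598 CPM, and migratory dendritic cells 682 and 655 CPM. Its log2 ratios in the 7 classes lay between -0.22 in B cells and 0.33 in ILC1-like cells. T cells, too few for a ratio, were at 379 CPM in 48 RES cells (313 to 455) and at 715 CPM in 34 Ctrl cells (609 to 833), where they were the highest class, though not beyond counting error of NK cells. A single T cell gave 21 of the 115 RES UMIs and another 46 of the 162 Ctrl UMIs, so these levels rest on few cells. An Itgb1 UMI was seen in 91.5% of RES and 86.6% of Ctrl NK cells that had an Itga2 UMI. The shares of all NK cells were close to these, at 89.9% and 83.9%.

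Itgb7 and Itgae, which together form the E-cadherin receptor, were both read in cDC1. Itgae had 104 UMIs in the whole RES library and 51 in Ctrl, and cDC1 held 60 and 27 of them, or 85.4 CPM in 43 RES cells and 34.8 CPM in 61 Ctrl cells. One cDC1 cell gave 10 of the 60 RES UMIs and another 13 of the 27 Ctrl UMIs, so the levels rest on few cells. In cDC2 both libraries had 0 Itgae UMIs, which allows up to 1.74 CPM in RES and 1.86 CPM in Ctrl, and classical monocytes, its background class, also had 0. T cells had 19.8 and 17.6 CPM. Itgb7 was at 262 CPM in RES and 244 CPM in Ctrl cDC1, at 258 and 203 CPM in cDC2 and at 276 CPM in ILC1-like cells of both libraries. C1q macrophages, its background class, had 28.1 and 24.2 CPM. Among cDC1 with an Itgae UMI, 89.5% of 19 RES cells and 90.0% of 10 Ctrl cells also had an Itgb7 UMI. The shares of all cDC1 were close to these, at 90.7% and 90.2%.

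The 2 chains of a pair were also counted in the same cell, after thinning each cell to 1000 UMIs. Itgam with Itgb2 was seen in 22.3% of the RES Arg1 and Spp1 macrophage class, where Itgam was seen in 52.6% and Itgb2 in 42.9% of cells. In nonclassical monocytes it was seen in 18.7% of RES cells (15.7 to 21.9) and 10.8% of Ctrl cells (7.79 to 14.4), and in NK cells in 10.95% and 9.75%. LFA-1, Itgal with Itgb2, was seen in 37.2% of RES nonclassical monocytes (33.4 to 41.0) and 22.8% of those of Ctrl (18.7 to 27.5), but in 3.43% of the RES Arg1 and Spp1 macrophage class. Itga4 with Itgb1 was seen in 30.9% and 26.3% of nonclassical monocytes and in 25.3% (23.0 to 27.7) and 30.5% (28.1 to 33.0) of NK cells. Among NK cells Itga4 met Itgb7 in 9.10% of RES and 6.93% of Ctrl cells. Whether the chains of a pair met more often than their separate levels would give was not tested. Both transcripts in a cell do not show that the proteins were paired.

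Of the 7 classes, C1q macrophages had the most members apart between the libraries and NK cells, nonclassical monocytes and cDC2 had none. A member was counted when its levels were 1.5-fold or more apart and at least 20 CPM in either library, and its interval excluded 0. The background over all genes used the same fold and CPM limits but set no condition on the interval. In C1q macrophages 7 members reached 20 CPM and 5 were apart. Itgam and Itgb2 were higher in RES, as were 18.8% of all genes tested, and Itgal, Itgax and Itga4 were lower, as were 19.2%, so that 38% of genes were apart in either direction. Outside the Arg1-high clusters each of these 5 members was under 1.5-fold apart in C1q macrophages. In classical monocytes 4 of 8 members were apart, against 8.93% of genes: Itgam was higher (4.44% of genes) and Itgal, Itgax and Itga4 were lower (4.49%). Of these 4, only Itgax stayed 1.5-fold apart outside the Arg1-high clusters (log2 -1.60). Itgam stood there at 0.41, Itgal at -0.46 and Itga4 at -0.39. The background over all genes was not recounted outside these clusters. B cells had 4 of 7 apart, against 21.2%, with Itgam and Itgb2 higher (13.4%) and Itgal and Itgax lower (7.76%). Outside the Arg1-high clusters the B class stood at -0.23 for Itgam, 0.05 for Itgb2 and -0.38 for Itgal, with intervals that included 0. Itgax had 0 RES and 11 Ctrl UMIs there. ILC1-like cells had 3 of 9 apart, against 27.1%, with Itga2 higher (11.7%) and Itga1 and Itgax lower (15.4%). NK cells had 0 of 8, where 1.35% of genes were apart, 0.759% higher and 0.59% lower. Nonclassical monocytes had 0 of 7, where 9.52% were apart, 6.59% higher and 2.93% lower. Type 2 dendritic cells had 0 of 7, where 14.4% were apart, 8.58% higher and 5.78% lower, and their Itgam was just short of the limit at 1.49-fold. Over all kept cells 3 of 9 members were apart, against 9.81%, with Itgam higher (6.07%) and Itga1 and Itga2 lower (3.74%).

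**Figure D5:**
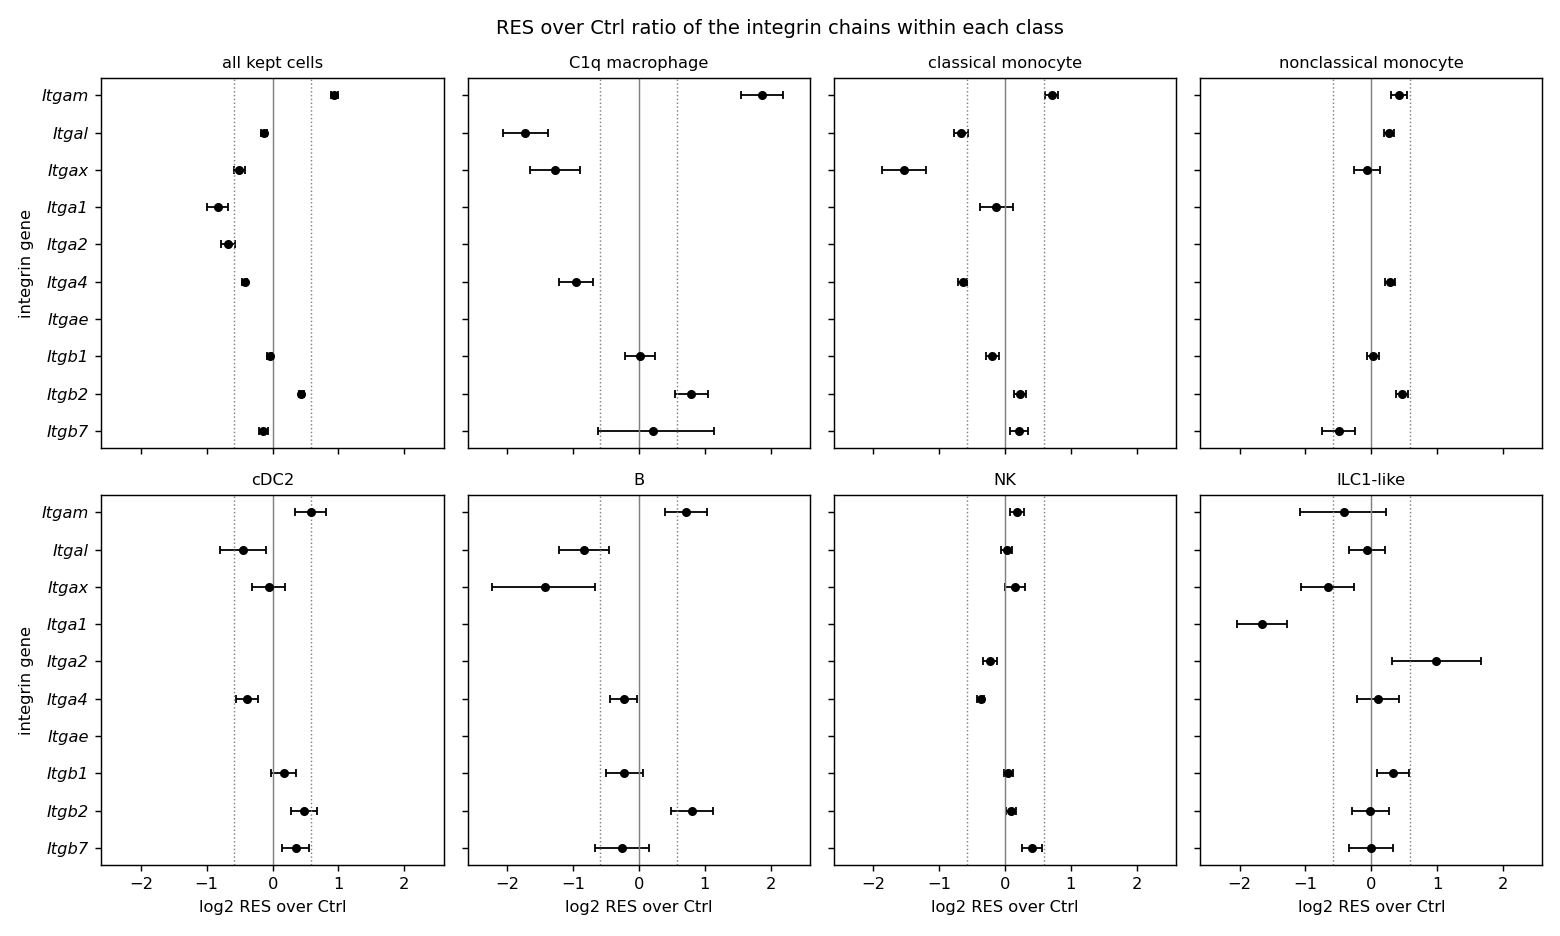
Log2 ratio of RES over Ctrl for each integrin chain in all kept cells and in 7 classes, with exact conditional binomial 95% intervals. The solid line marks equal levels, dotted lines mark 1.5-fold, and genes under 20 CPM in both libraries are not plotted. NK cells show ratios from -0.37 to 0.40, and C1q macrophages show ratios from -1.73 to 1.87.

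Genes that work with integrins were counted over all kept cells by the background rule, with no condition on the interval. There 9.81% of all genes were 1.5-fold apart and the median log2 ratio was -0.0012. Of 16 other integrin chains, 3 reached 20 CPM, with a median of 1.14. Itga5, a fibronectin receptor chain, had 51.2 CPM in RES and 22.9 CPM in Ctrl (log2 1.16), Itgb5, a partner of the alphaV chain, 69.0 and 31.4 CPM (1.14), and Itgav, the alphaV chain, 64.7 and 54.1 CPM (0.26). Within classes Itgb5 was higher in RES in classical monocytes (71.9 and 41.2 CPM), nonclassical monocytes (104.5 and 69.6 CPM) and B cells (58.9 and 34.5 CPM). C1q macrophages went the other way, at 159 CPM in RES and 208 CPM in Ctrl (log2 -0.39, -0.69 to -0.08). Among 24 activation and adaptor genes, 21 reached the limit, of which 1 was higher and 1 lower, and their median was -0.04. The higher was Parvb, an adaptor at the integrin tail, at 21.3 and 10.9 CPM (0.97), and the lower was Skap1, an adaptor of LFA-1 activation in T cells, at 52.3 and 81.5 CPM (-0.64). Within NK cells Skap1 was at 223 and 226 CPM. Rap1b, a small GTPase that switches integrins on, had a ratio of 0.58, and Ptk2b, a kinase signalling from them, -0.23.

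Among 18 ligand genes 7 reached 20 CPM, of which 3 lay 1.5-fold above and 1 below, and their median was 0.41. Spp1, the gene of osteopontin, had 621 CPM in RES and 12.1 CPM in Ctrl (log2 5.68), and Thbs1, that of thrombospondin 1, 87.6 and 5.80 CPM (3.92). Both were markers of the Arg1 and Spp1 macrophage class. Icam1, a ligand of the beta2 integrins, was lower in RES at 61.1 and 94.1 CPM (-0.62), and Thy1 had a ratio of -0.31. Of 8 genes that signal beside integrins in the membrane 7 reached the limit and 3 were higher, with a median of -0.07. Plaur, the urokinase receptor that binds CD11b, was at 72.3 and 35.7 CPM (1.02, 0.89 to 1.14), and Cd9, a tetraspanin, at 234 and 151 CPM (0.63). The tetraspanins Cd81 and Cd82 had ratios of -0.47 and -0.29. In NK cells no gene of the chain, adaptor or membrane lists was 1.5-fold apart, and 2 of 5 ligands were, Spp1 among them (25.7 and 9.29 CPM). Arg1, another gene of the macrophage list, was at 27.9 CPM in RES and 2.99 CPM in Ctrl NK cells of cluster 3. Whether free RNA gave these NK values was not tested.

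Across 16 class sums with at least 50 cells, which share the 2 libraries, 2760 genes were ranked by the Pearson correlation of log2(CPM + 10) with Itgam. The 5 most alike were Sp3, a zinc finger transcription factor, at 0.95, Arcn1, a coatomer subunit, at 0.91, Map7d1 at 0.89, Vmp1, a membrane protein of autophagy, at 0.87 and Ube2d2a, a ubiquitin-conjugating enzyme, at 0.87. Among the other members Itgb2 was most alike at 0.69 and Itgb1 stood at 0.29. Itgae at -0.70 and Itgb7 at -0.60 ran most against it.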

How the data were processed

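The deposited matrices hold raw UMI counts for each gene and barcode, as whole numbers that the authors did not normalize, beside lists of gene and barcode names. Per the file headers, Cell Ranger 3.1.0 wrote them. The submitters' processing notes list bcl2fastq, Cell Ranger and mm10, and do not name the annotation that genes were counted on. All later steps were run for this re-analysis in Python 3.11.15 with scanpy 1.11.5, numpy 2.4.6 and scipy 1.17.1. A barcode had to show 200 genes or more and no more than 10% mitochondrial UMIs, and doublets were removed by the highest Scrublet scores, at 0.8% per 1000 barcodes. The filter removed 121 RES and 245 Ctrl barcodes and the doublet step 146 and 109.

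A cell took the class of whichever of 19 lists of 8 markers showed the most markers, with at least 3 seen and a lead of 1. NK and ILC cells were then split by 2 further lists. Clusters came from Leiden clustering (resolution 1, 2000 variable genes, 30 principal components, 15 neighbours) of both libraries without integrin genes, and 22 were found. No test was possible with 1 library per group. Ratios carry exact conditional binomial, sums exact Poisson and shares exact Clopper-Pearson intervals, and the limit for a count of 0 is 3 counts. Levels are compared within a gene. The functions were tested on simulated data. Named genes were the 10 members, the 2 highest and 2 lowest genes of each of 4 lists and the 5 genes most like Itgam. Genes used to describe clusters and B cells (Arg1, Lyz2, Gzma) came on top of these. The members and lists were chosen with earlier results of these data known. Alternatives varied the gates, clustering, mitochondrial and doublet limits, scaling, depth and the CPM limit.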

Additional observations from a re-analysis of the deposited data

Results flagged for a closer look

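For 4 members, 2 classes moved in opposite directions between RES and Ctrl, with counting intervals on either side of 0 and 1 of the 2 at 1.5-fold or more. The gap between the classes was not tested. Itgal had a log2 ratio of 0.27 in nonclassical monocytes and -1.73 in C1q macrophages, a gap of 1.99. For Itga4 the same classes stood at 0.28 and -0.95, a gap of 1.24. Itgax stood at 0.15 in NK cells and -1.43 in B cells, a gap of 1.58, and 22 RES and 48 Ctrl UMIs gave the B value (0 and 11 UMIs outside the clusters high in Arg1). Itga2 stood at 0.98 in ILC1-like cells and -0.23 in NK cells, a gap of 1.21. Outside the clusters high in Arg1, the C1q macrophage ratio was -0.45 for Itgal and 0.28 for Itga4, so the Itga4 gap was not seen there.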

How the results depend on the processing

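No paired analysis was possible because each group was 1 library, and no replicate could be left out. Under 10 alternatives, 3 of them chosen after seeing the data, 537 of 604 log2 ratios of RES over Ctrl (62 results) stayed within the counting interval of the reported value, 63 moved outside it and 4 that had been 1.5-fold apart changed sign. Those were Itgal in B cells, at 0.047 within the main cluster, and, without the Arg1-high clusters, Itgam in B cells at -0.23 and, in C1q macrophages, Itga4 at 0.28 and Itgb2 at -0.012. The Itgam ratio in classical monocytes was 0.57 with a stricter gate of 4 markers and a lead of 2, 1.13 with classes taken from clusters, 0.12 in the main cluster and 0.41 without the Arg1-high clusters. In nonclassical monocytes it was 0.28 with the stricter gate, 0.27 with gates after thinning to 2000 UMIs, -0.011 in the main cluster and 0.11 without the Arg1-high clusters, and in C1q macrophages 0.44 without them. Within RES, ILC1-like over NK cells stood at -1.41 with thinned gates, -2.69 with classes from clusters and -3.46 in the main clusters, and within Ctrl at -2.08 in the main clusters. NK cells over classical monocytes in RES stood at -0.89 with classes from clusters, -0.028 in the main clusters and -0.24 without the Arg1-high clusters. C1q macrophages over classical monocytes in RES stood at 0.49 with thinned gates, 0.76 in the main clusters and -0.94 without the Arg1-high clusters, which turned the order round. With a limit of 100 CPM, 0 other chains were higher in place of 2, 0 adaptors were higher or lower in place of 1 each, and 0 ligands were lower in place of 1, since genes under that limit were no longer counted. With a pseudocount of 10 CPM, 0 adaptors and 0 ligands were lower. Classes from clusters gave no Arg1 and Spp1 macrophage class and left 9 RES and 48 Ctrl cells as C1q macrophages, too few for a ratio. Depth limits Itgae, and Itga1 and Itga2 outside NK and ILC1-like cells.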
